A study of Homo sapiens with 6 samples.

Results

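AP-1 is a family of dimeric transcription factors built from Fos and Jun proteins, and 10 genes of this family and of the immediate early response around it were followed across the arrays: FOS, FOSB, FOSL1, FOSL2, JUN, JUNB, JUND, ATF3, EGR1 and MAFF. All probes that the array annotation assigned to these genes were taken, which gave 14 of the 47322 probes for these 10 of the 20046 genes that the annotation names. There was 1 probe for each of 8 genes and there were 3 probes each for ATF3 and MAFF. All probes of a gene were kept whatever their values, but the genes were chosen with earlier results of these data known.

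MDA-MB-231, a basal-type human breast cancer line that is triple-negative, was transduced with lentivirus expressing either a scrambled control or antagomiR-138, which the sample labels call antimiR-138 and which pairs with miR-138. The inhibitor was transcribed constitutively from an RNA polymerase III promoter in a vector that also carries a fluorescent reporter and a puromycin resistance gene. Cells of both groups were grown in the same serum-containing medium and harvested 72 h after transduction, on day 3. Illumina bead arrays were run on total RNA of 3 samples per group, 6 arrays in all, and the comparison asks which transcripts differ upon miR-138 knockdown.

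Fos and Jun proteins pair through a leucine zipper and contact DNA through the adjoining basic region, an arrangement called bZIP. Jun proteins can pair with each other, whereas Fos proteins need a Jun partner, so the mix of subunits in a cell sets which dimers can form. FOS, FOSB, JUNB, ATF3 and EGR1 are transcribed within minutes of a serum, growth factor or stress signal, through serum response factor and its ETS partners or through stress kinases. Their transcripts are short-lived, and a measurement on day 3 does not read an early burst after transduction. What stimuli the cells met shortly before harvest is not stated in the sources used here. FOSL1, which encodes Fra-1, is known for its high level in mesenchymal-like breast cancer cells.

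The inhibited miRNA is shown because every sample of the antagomiR-138 group shares this target. The 23-base mature sequence (RefSeq, GRCh38.p14) is made from chr3:44114234-44114256 and from chr16:56858527-56858549, both on the plus strand, and its seed, bases 2 to 8, is in capitals.
hsa-miR-138-5p: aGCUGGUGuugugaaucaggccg

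Promoter stretches are shown for FOS, JUND, MAFF and EGR1, whose levels are described below, since the elements in them are of the kinds that early-response and ATF-regulated genes are known for. Each is a 30-base stretch before the RefSeq gene start, read 5′ to 3′ on the strand of the gene (GRCh38.p14), with the element in capitals. JUND lies on the minus strand and its stretch spans chr19:18281804-18281833. The stretch of MAFF spans chr22:38201929-38201958, that of FOS chr14:75278783-75278812, and those of EGR1 chr5:138465364-138465393 and chr5:138465386-138465415, all on the plus strand.
JUND cyclic AMP response element: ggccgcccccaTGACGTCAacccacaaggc
MAFF cyclic AMP response element: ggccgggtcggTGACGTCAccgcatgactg
EGR1 serum response element, distal: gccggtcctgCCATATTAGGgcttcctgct
EGR1 serum response element, proximal: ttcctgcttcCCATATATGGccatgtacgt
FOS TATA box: taaaacgcttgtTATAAAagcagtggctgc

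The elements begin 200 bases before the start of JUND, 54 before a start of MAFF, 105 and 83 before the start of EGR1 and 33 before that of FOS. MAFF has another RefSeq start in the table, whose window held no cyclic AMP response element. For EGR1, distal and proximal give only the order of the elements shown. Elements more than 250 bases before a start were not searched for. Over both strands of the 35116 promoter windows of the RefSeq table (250 bases before to 50 after each start), the cyclic AMP response element TGACGTCA, a site for ATF/CREB and for Jun-ATF dimers, was present in 1.85%. The serum response element core was present in 1.29% and TATAAA in 11.5%. Of the 11 windows of 9 member genes in the table, TATAAA was found for ATF3, FOS, FOSB and JUNB. FOSL1 had no window in the table and could not be searched for any element. The AP-1 site, TGAGTCA or TGACTCA, was present in 4.95% of windows. Among the members searched it was in that of FOSL2 alone, where it begins after the gene start. The EGR site, GCGGGGGCG or CGCCCCCGC, was present in 5.07% and in none of the member windows. These matches describe the letters and are not evidence of binding.

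Per array, 19263 to 20430 probes had a detection p, the share of negative control probes at least as bright, under 0.05. Values of arrays in the same group correlated at 0.996 and those of opposite groups at 0.962 to 0.964. The 20051 probes detected on at least 3 arrays were tested with limma (moderated test, two-sided, Benjamini-Hochberg adjustment over all 20051, threshold 0.05), and levels are given as normalized log2 signal. Whether the 3 samples per group were cultured or transduced separately is not stated, and p-values here reflect only sample-to-sample spread that may be technical. In RNA from whole cultures, fewer cells with a transcript and less of it per cell cannot be told apart. Of the 13 luminal breast markers listed, 8 had a probe that passed the detection filter, among them KRT8, XBP1, EPCAM and ERBB2 with mean log2 signals of 12.04, 11.72, 10.32 and 10.17 in the scrambled control, and ESR1, PGR, FOXA1, TFF1 and CDH1 had none. All 10 listed markers of mesenchymal-like basal lines had one.

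Of the 14 member probes, 11 were tested and 4 were called. These were FOS and FOSL1, which fell, and JUND and 1 probe of MAFF, which rose. FOS and that MAFF probe met the entry rule only through the group in which they were higher. Without the detection filter their adjusted p-values in the same limma test were 3.46e-05 and 2.23e-05. The 4 of 11 stand beside 49.9% of all tested probes called in either direction, with 23.9% lower and 26.0% higher. The groups did not overlap for 6 of the 11 probes, beside 59.1% of all tested probes. With calls this common across the arrays, a call of a member is read by its size and spread, and the members are described one by one.

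**Figure D1:**
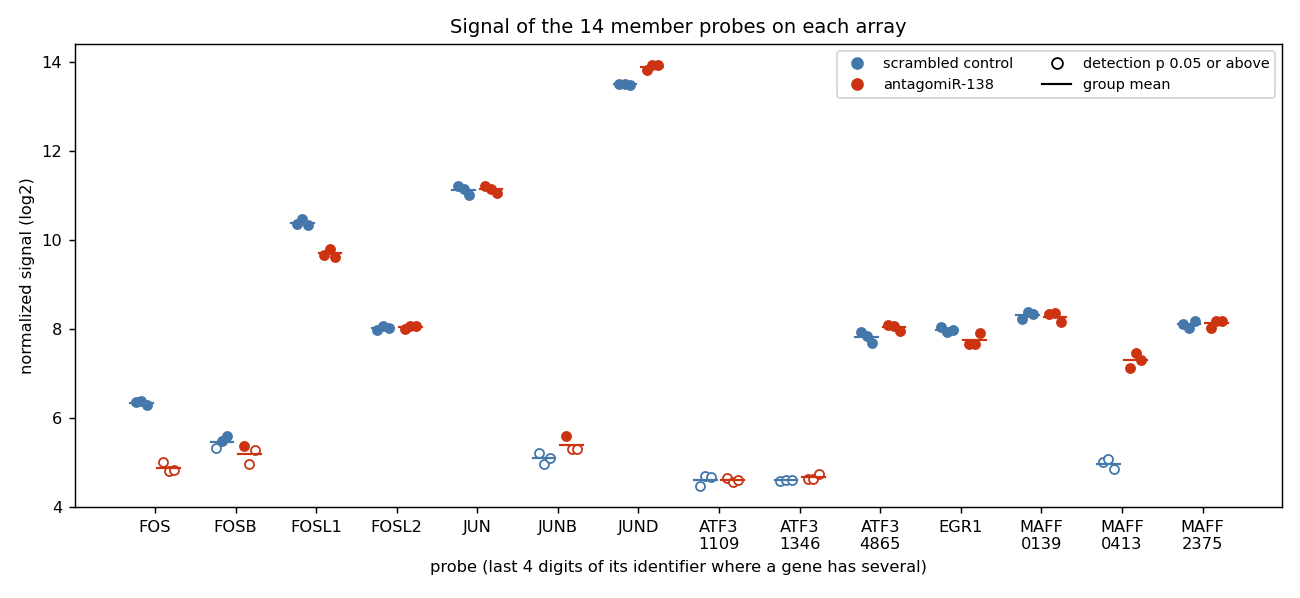
Normalized log2 signal (vertical axis) of each of the 14 member probes (horizontal axis) on the 3 scrambled control and 3 antagomiR-138 arrays, with lines at the group means and open points where the detection p was 0.05 or above. FOS was detected on the 3 scrambled control arrays alone and MAFF probe ILMN_1700413 on the 3 antagomiR-138 arrays alone, and the other probes of MAFF overlapped between groups.

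The Fos family moved unevenly: FOS and FOSL1 fell, and FOSB and FOSL2 did not pass the threshold. FOS encodes the subunit that with JUN forms the classical AP-1 dimer. Its log2 signal was 6.36, 6.37 and 6.28 on the scrambled control arrays and 5.00, 4.81 and 4.82 on the antagomiR-138 arrays. All 3 control samples lay above all 3 knockdown samples, and the probe was above background on each of the former and on none of the latter. The means were 6.34 ± 0.0450 and 4.88 ± 0.102 (SD, n = 3 each), a log2 fold change of -1.46 ± 0.0746 (SE; adjusted p = 2.51e-05). Because the knockdown values lie at background, this is a bound: FOS was at least 1.91-fold lower, taking the higher of the probe's own signal and the lowest signal among detected probes on each knockdown array. The deposited intensities were 67.2, 66.9 and 66.5 in the scrambled control and 10.2, 1.31 and 1.49 upon knockdown. FOS was thus dim also in the scrambled control. The fitted value depends on the offset added before log2, and was -0.86 with an offset of 50.

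FOSL1, unlike FOS, was well above background in both groups, so that its fall could be measured on both sides. Its log2 signal was 10.36, 10.47 and 10.35 in the scrambled control and 9.67, 9.80 and 9.63 upon miR-138 knockdown, so that the lowest control sample was above the highest knockdown sample. The means of 10.39 ± 0.0679 and 9.70 ± 0.0911 (SD, n = 3 each) gave a 1.62-fold lower signal (log2 fold change -0.70 ± 0.0752 SE, adjusted p = 4e-04). The deposited intensities, 1280, 1400 and 1350 against 933, 828 and 654, did not overlap either. Of the 11426 genes tested, 18.8% had a larger fitted change.

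FOSB and FOSL2 are the remaining Fos genes. FOSB, an early-response subunit like FOS, was near background, with log2 signals of 5.33, 5.47 and 5.58 in the scrambled control and 5.37, 4.95 and 5.27 upon knockdown. It was detected on 2 control arrays and 1 knockdown array, the groups overlapped, and the log2 difference of -0.26 (95% interval -0.56 to 0.04) did not pass the test (adjusted p = 0.134). FOSL2 encodes Fra-2, a slower and more lasting subunit related to Fra-1. Its signals were 7.97, 8.06 and 8.02 in the scrambled control and 8.0, 8.06 and 8.07 upon knockdown. Here the values of the groups were interleaved, and the interval of the log2 difference, -0.12 to 0.17, leaves out a change of the size seen for FOSL1 (adjusted p = 0.789).

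The Jun family supplies the partner that each Fos protein needs. JUN, its founding member, was bright on every array, with log2 signals of 11.21, 11.14 and 11.01 in the scrambled control and 11.22, 11.14 and 11.06 upon knockdown. The groups overlapped and the log2 difference was 0.02, with an interval of -0.17 to 0.21 (adjusted p = 0.857). JUN thus differed by less than the spread between its own control samples, on the arrays on which FOSL1 fell.

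JUND, a subunit that most cells express steadily and that often opposes JUN in growth control, was the Jun gene that passed the test. Its log2 signal was 13.51, 13.52 and 13.50 in the scrambled control and 13.83, 13.94 and 13.94 upon miR-138 knockdown. The control samples were nearly equal and each knockdown sample lay above them. The means of 13.51 ± 0.0075 and 13.90 ± 0.0604 (SD, n = 3 each) gave a 1.32-fold higher signal (log2 fold change 0.40 ± 0.0618 SE, adjusted p = 0.00196). The deposited intensities, 11100, 11600 and 12300 against 16500, 15300 and 13900, did not overlap. The size is ordinary for these arrays, since 41.1% of genes had a larger fitted change, and it is under 1.5-fold.

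JUNB, which is induced early and is a weaker activator than JUN, could not be tested. Its probe was detected on none of the control arrays and on 1 knockdown array. The log2 signals were 5.20, 4.96 and 5.10 in the scrambled control and 5.60, 5.30 and 5.29 upon knockdown, all close to background. Without the detection filter the difference of 0.31 had an adjusted p of 0.113.

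**Figure D2:**
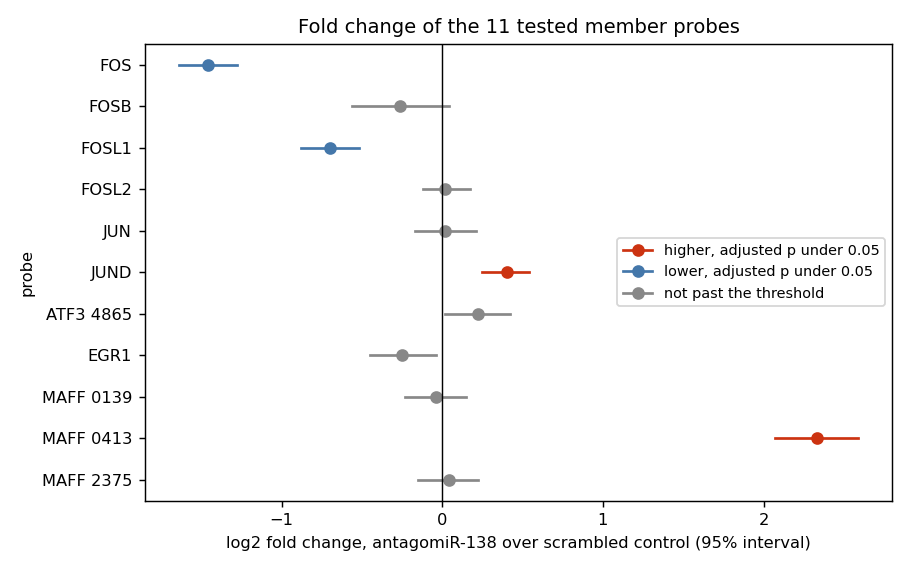
Log2 fold change of antagomiR-138 over scrambled control (horizontal axis) for the 11 tested member probes (vertical axis), with points at the estimate of limma and bars for the 95% interval (n = 3 per group). FOS at -1.46 and FOSL1 at -0.70 lie left of 0, JUND at 0.40 and 1 MAFF probe at 2.33 lie right of it, and the intervals of JUN, FOSL2, FOSB and the other MAFF probes include 0.

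ATF3 and MAFF are bZIP factors outside the Fos and Jun families. ATF3, a stress-induced factor that pairs with Jun proteins and often represses, was read by probe ILMN_2374865, with log2 signals of 7.93, 7.84 and 7.69 in the scrambled control and 8.10, 8.06 and 7.96 upon knockdown. Each knockdown sample was above each control sample, but the log2 difference of 0.22 ± 0.0831 (SE; interval 0.02 to 0.42) had an adjusted p of 0.0656, and the deposited intensities of the groups overlapped. The difference passed the threshold in 4 of 18 other settings, among them the one without scrambled control replicate 1 (0.27, adjusted p = 0.0491). The other probes of ATF3, ILMN_1661109 and ILMN_1791346, had signals of 4.46 to 4.74 and were detected on no array.

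MAFF encodes a small Maf protein, which has the bZIP but lacks an activation domain and works through partners such as the NRF factors. Its 3 probes did not read alike. ILMN_1680139, the brightest, had log2 signals of 8.23, 8.38 and 8.34 in the scrambled control and 8.33, 8.35 and 8.16 upon knockdown, and ILMN_2322375 had 8.11, 8.02 and 8.18 against 8.03, 8.19 and 8.19. Both overlapped between groups, with log2 differences of -0.04 (interval -0.23 to 0.15, adjusted p = 0.723) and 0.04 (interval -0.15 to 0.22, adjusted p = 0.734).

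The remaining MAFF probe, ILMN_1700413, rose. It read 5.00, 5.07 and 4.84 in the scrambled control, where no array detected it, and 7.12, 7.46 and 7.31 upon miR-138 knockdown, where all 3 did. The groups were far apart, at 4.97 ± 0.120 and 7.30 ± 0.172 (SD, n = 3 each), a fitted log2 fold change of 2.33 ± 0.109 (SE; adjusted p = 2.02e-05). As a bound, it was at least 3.76-fold higher, and the fitted value was 1.55 with an offset of 50. The annotation assigns all 3 probes to the same RefSeq transcript. A direction for MAFF as a gene cannot be given from these probes, and where on the transcript each probe lies was not examined.

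EGR1, a zinc finger factor induced together with FOS through serum response elements such as those shown above, just missed the threshold. Its log2 signal was 8.05, 7.93 and 7.97 in the scrambled control and 7.66, 7.67 and 7.90 upon knockdown. Every knockdown sample was below every control sample, although antagomiR-138 replicate 3, at 7.90, came close to the lowest control sample, at 7.93. The difference of -0.25 ± 0.0866 (SE; interval -0.45 to -0.04) had an adjusted p of 0.0527. The deposited intensities, 250, 230 and 252 against 213, 177 and 186, did not overlap. EGR1 passed the threshold in 8 of 18 other settings, including scale normalization (-0.32, adjusted p = 0.0156) and the fit without antagomiR-138 replicate 3 (-0.32, adjusted p = 0.0169).

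**Figure D3:**
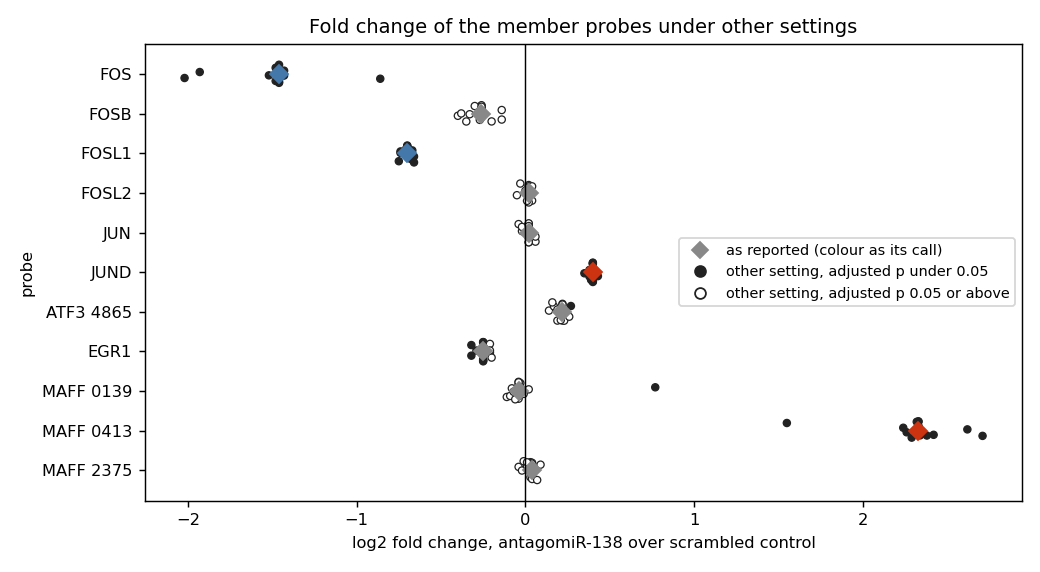
Log2 fold change of the tested member probes (horizontal axis) as reported (diamonds) and under the other processing settings tried (points, filled where the adjusted p was under 0.05). FOS, FOSL1, JUND and MAFF probe ILMN_1700413 stayed past the threshold wherever they entered, EGR1 and ATF3 fell on both sides of it, and the point at 0.77 for MAFF probe ILMN_1680139 is the mean of the 3 MAFF probes.

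When each gene was counted by its brightest tested probe, 3 of 9 member genes were called, with JUND higher and FOS and FOSL1 lower. Over all 11426 genes the share was 56.6%, with 28.9% higher and 27.7% lower. The median log2 fold change of the 9 members was -0.04, beside 0.02 over all genes, whose middle 50% lay between -0.32 and 0.31. The count of 3 rose to 5 when only brightest probes were fitted and to 6 with the mean of the probes of a gene, as EGR1 and ATF3 and then MAFF crossed the threshold. The share of all genes called in those settings is not given here, so this rise cannot be set against it.

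Other bZIP genes of the AP-1, ATF, MAF and CREB groups moved in both directions. Of 22 tested, 7 rose, 4 fell and 11 were not called (50% called, beside 56.6% of all genes), with a median of 0.05. BATF, a subunit that pairs with Jun proteins and is best known from lymphocytes, had log2 signals of 5.19, 5.12 and 4.97 in the scrambled control, below detection, and 6.83, 6.54 and 6.68 upon knockdown. It was at least 2.46-fold higher (fitted log2 fold change 1.59 ± 0.0994 SE, adjusted p = 4.92e-05). JDP2, a repressor of AP-1 that pairs with JUN, fell from 7.62, 7.79 and 7.55 to 6.49, 7.02 and 6.88 (log2 fold change -0.85 ± 0.145 SE, adjusted p = 0.00287). What the changes of BATF and JDP2 mean for Jun dimers was not tested. CEBPD and CEBPB, which act in the acute-phase response, rose by 0.62 and 0.49, XBP1, of the unfolded protein response, by 0.57, and the small Maf gene MAFG by 0.45 on the log2 scale. CREM (-0.60), ATF4 (-0.35), the main factor of the amino acid response, and BACH2 (-0.35), a partner of small Maf proteins, fell.

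Other genes listed as immediate early, whose inducing signals vary, split between directions. Of 28 tested, 13 were higher, 9 lower and 6 not past the threshold (78.6% called, beside 56.6% of all genes), with a median of 0.01. HES1, a Notch-responsive repressor, rose by 1.31, CSRNP1 by 1.09, the kinase gene SGK1 by 0.94, RHOB by 0.68 and the phosphatase gene DUSP2 by 0.67 on the log2 scale. CCN1, a matricellular protein gene and a target of serum response factor and YAP, had the largest fall of the list (-1.12), from 13.50, 13.35 and 13.45 to 12.16, 12.47 and 12.33. ZFP36, which encodes a protein that promotes decay of AU-rich mRNAs such as that of FOS, fell by 1.02, from 9.51, 9.44 and 9.49 to 8.30, 8.57 and 8.52. BHLHE40 (-0.79), GADD45B (-0.77) and ZFP36L2 (-0.60) fell as well. FOS and FOSL1 thus fell beside part of this list, and another part rose.

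Genes upstream of the members were called at 45.8%, beside 56.6% of all genes. Of 24 tested genes for serum response factor, its ETS and MRTF partners and MAP kinases, 6 were higher and 5 lower, with a median of 0.01. MAP2K4 and MAP2K3, kinases of the JNK and p38 pathways, rose by 0.89 and 0.69, and MEF2D by 0.74. Of 5 ribosomal S6 kinase genes tested, RPS6KA5 (-0.98), RPS6KA2 (-0.88) and RPS6KA1 (-0.78) fell, and RPS6KA3 (-0.04, adjusted p = 0.683) and RPS6KA4 (-0.04, adjusted p = 0.647) did not pass the test. SRF, named after its value was seen, fell by 0.51 (12.25, 12.02 and 12.08 against 11.47, 11.71 and 11.65, adjusted p = 0.00412). Of its partners, also named after their values were seen, MRTFB fell by 0.75 and ELK4 rose by 0.54 at its brightest probe (adjusted p = 0.0153). MRTFA (0.22, adjusted p = 0.172), ELK1 (-0.07, adjusted p = 0.484) and ELK3 (0.24, adjusted p = 0.141) did not pass the test.

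Cofactors and turnover factors of AP-1 and EGR1 numbered 13 tested, 3 of them higher and 4 lower (median -0.12). The share called was 53.8%, beside 56.6% of all genes. FHL2, a coactivator that binds Fos and Jun proteins, fell by 0.90, from 13.18, 13.18 and 13.23 to 12.27, 12.27 and 12.35 (adjusted p = 6.33e-05). SIRT1 (-0.61), a deacetylase, and the coactivator NCOA1 (-0.48) also fell. FBXW7 and COP1, which direct JUN to degradation, rose by 0.56 and 0.31, and NAB1, a corepressor of EGR proteins, rose by 0.50.

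Genes reported elsewhere as AP-1 targets were measured beside the factors. Of 19 tested, 9 were higher, 6 lower and 4 not past the threshold (78.9% called, beside 56.6% of all genes), with a median of 0.14. IL6 rose from 8.07, 8.19 and 7.96 to 11.53, 11.57 and 11.63, HBEGF, an EGF receptor ligand gene, rose by 3.03 and CXCL8 by 2.79 on the log2 scale. VEGFA (-1.14), the receptor kinase gene AXL (-0.80) and the metallothionein gene MT2A (-0.79) fell. The listed targets therefore moved both ways. Of 7 tested EGR1 target genes, 3 were higher and 1 lower (57.1% called, near the 56.6% of all genes, median -0.04). TNFRSF10B, a death receptor gene, rose by 1.00, PDGFA by 0.60 and ICAM1 by 0.49, and THBS1 fell by 0.49. This count of 4 dropped to 2 without antagomiR-138 replicate 2.

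**Figure D4:**
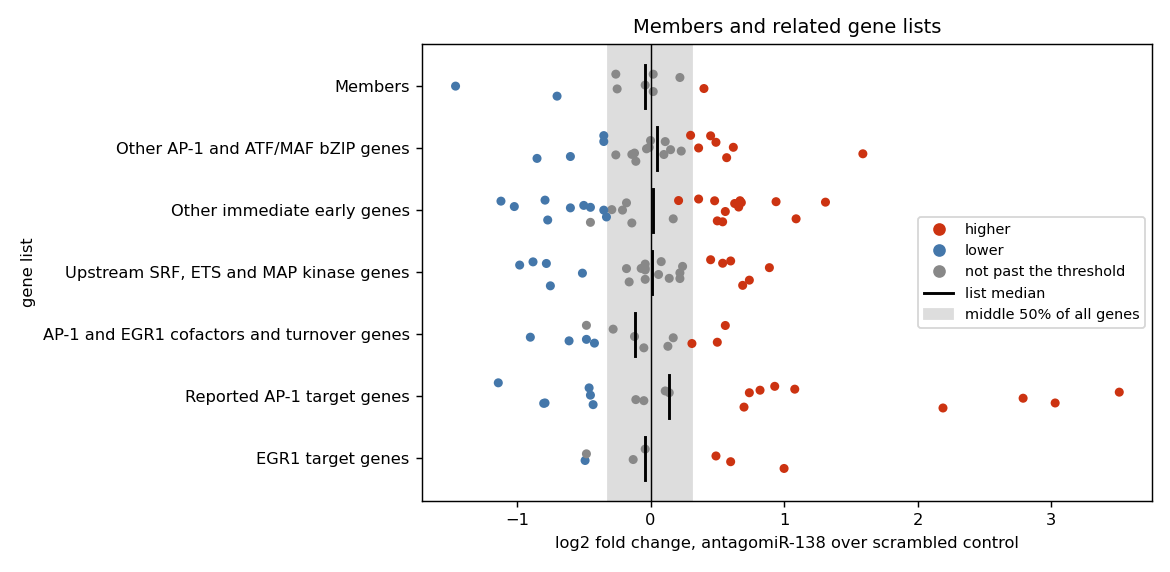
Log2 fold change of antagomiR-138 over scrambled control (horizontal axis) for each tested gene, by its brightest probe, of the members and of 6 related lists (vertical axis), with black lines at the list medians and a grey band for the middle 50% of all genes. The medians lie between -0.12 and 0.14, inside the band, and the AP-1 target list reaches furthest, to 3.51 for IL6.

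Markers of breast cell states moved on the same arrays. Of the 10 markers of mesenchymal-like basal lines, a list that includes FOSL1, 5 fell and 3 rose (80% called, beside 56.6% of all genes). EGFR (-0.91), AXL (-0.80), also counted among the AP-1 targets, and FOSL1 itself had the largest falls, and ETS1 (0.46), MSN (0.42) and CAV2 (0.23) rose. Their summed linear signal was 121147 to 125443 in the scrambled control and 108576 to 110515 upon knockdown. Such a sum is weighted to the brightest markers, here VIM (-0.05, not past the threshold), CAV1 (-0.29) and CD44 (-0.45), and does not describe each marker. Of the 13 luminal markers, 8 were tested and all were called (100%, beside 56.6% of all genes). That share depends on the entry rule. Without the detection filter 7 of the 13 were called, 2 higher and 5 lower. A share over all genes is not given for that setting. Of the 8 tested with the filter, 5 fell, led by ERBB3 (-1.30), KRT8 (-1.18) and ERBB2 (-1.15). ERBB3 was near background upon knockdown, with a mean log2 signal of 5.33 and detection on 2 of 3 arrays. The 3 that rose were XBP1 (0.57), also counted among the bZIP genes, KRT18 (0.50) and SPDEF. KRT18 was dim too (means 5.24 and 5.74) and was detected on 2 of 3 control arrays. No scrambled control array detected SPDEF, which was at least 1.56-fold higher (fitted 0.75). SPDEF thus met the entry rule only through the knockdown group, in which it was higher. The summed signal of the 8 luminal markers was 10055 to 10539 in the scrambled control and 8276 to 8870 upon knockdown. This sum is weighted to KRT8, which fell, and XBP1, which rose. The part of these marker differences in the change of FOSL1 was not tested.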

How the data were processed

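The authors hybridized biotinylated cRNA of 3 scrambled control and 3 antagomiR-138 samples and deposited probe intensity on a linear scale, background-subtracted and not normalized between arrays (26.1% to 27.5% of values below 0). A detection p-value for each intensity was deposited by the authors, as was a quantile-normalized intensity table (medians 14.46 to 14.47, same rank order, exact method not given in the sources used here). The submitters' processing notes name GenomeStudio 1.9.0, and the methods BeadStudio and Partek. Probes were named through GEO's platform annotation, which gives 1 symbol for 30113 probes, several for 8 and none for 17201. The array design named in the methods differs from that of this annotation. Symbols checked through Entrez identifiers did not change.

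The intensities were processed with neqc of limma 3.58.1 (R 4.3.3), which estimates the normexp background from detection p, adds an offset of 16, makes the quantiles of the arrays equal and takes log2. Entry required detection p under 0.05 in 3 or more arrays (20051 probes, 15182 with 1 gene). A common fit of lmFit and eBayes over the 6 samples, with no covariate, was adjusted over all entering probes, and a gene was counted by its brightest entering probe (11426 genes). The scripts were tested on simulated data. Where no array of a group detected a tested probe, its fold is given as a bound, from normalized log2 means and on the scale of this offset. Such a probe met the entry rule only through the other group. The number of arrays limits the precision, with a median SD within groups of 0.116 in log2 units.

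The members and gene lists were chosen with earlier results of these data known. All members were named with every probe. Of each of the 8 other lists, the 3 largest rises and falls among called genes were named (5 for other bZIP and other immediate early genes). The alternatives were another offset, no further background correction, scale or loess normalization, the authors' normalized table, other detection filters, genes as the unit, the replicate number as a block, other variance settings, the methods' t-test, other thresholds and leaving out each sample. Amino acid sequences were planned and are not used here. No source used here gives slides or scan dates, and no term for them was fitted.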

Additional observations from a re-analysis of the deposited data

How the results depend on the processing

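FOSL1 and JUND kept their direction and an adjusted p under 0.05 in all 18 other settings of processing, test or samples (-0.75 to -0.66 and 0.35 to 0.43 on the log2 scale), as did FOS in the 17 (-2.02 to -0.86) and MAFF probe ILMN_1700413 in the 15 (1.55 to 2.71) where they could be computed. With detection p under 0.01 required on all 6 arrays, FOS, FOSB and that MAFF probe did not enter, and FOSL1, JUND, EGR1 and ATF3 were called. The values of FOSL2, JUN and the other MAFF probes, near 0 in the reported fit, changed sign, and the cause was not tested. With scale normalization they were -0.05 for FOSL2, 0.00 for JUN and -0.04 for MAFF probe ILMN_2322375, and with loess -0.03, -0.02 and -0.02. Leaving out 1 sample gave 0.00 to 0.04 for FOSL2, -0.04 to 0.06 for JUN, -0.08 to 0.02 for MAFF probe ILMN_1680139 and -0.01 to 0.09 for ILMN_2322375. The mean of the MAFF probes was 0.77, which takes in the probe that rose. Called member genes numbered 5 with brightest probes fitted alone and 6 with the mean of probes. Requiring a 1.5-fold change besides left 3 of the 4 called member probes and 2 of the 3 member genes, with JUND (1.32-fold) lost. It left 4442 of all 20051 probes. Of the lists it left 4 other bZIP genes, 12 other immediate early genes, 2 cofactors, 2 EGR1 targets, 3 mesenchymal-like and 4 luminal markers. A share over all genes is not given for the gene counts in these settings. EGR1 targets numbered 2 at an adjusted p under 0.01, and luminal markers 4 with the strict detection filter. Leaving out 1 sample gave 4 to 5 member probes, 3 to 4 member genes, 2 to 4 EGR1 targets (the 2 without antagomiR-138 replicate 2) and 8694 to 9101 probes in all. Replicate numbers follow the order of the samples within a group, since the labels number them through both groups. Deviations of same-numbered samples correlated at -0.014, -0.006 and 0.041, and 2 of 6 samples correlated best with their own number. No pairing by number was thus seen, but these values cannot tell whether samples shared a culture. With the replicate block, 4 member probes, 3 member genes and 9305 probes in all were called, and no member call changed. The methods' t-test gave 5 of 11 member probes unadjusted and 4 after Benjamini-Hochberg adjustment, beside 10423 and 8756 of all 20051 tested probes. Signal near background limits FOS, FOSB, JUNB and the dim probes of ATF3 and MAFF.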

Other observations

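The log2 differences of the 3 MAFF probes spanned 2.36. Of 607 genes with 3 or more tested probes, 3 spanned at least as much, MAFF included, and the median span was 0.37. Several genes of the related lists also had tested probes that did not read alike. The brightest ATF6B probe had a log2 difference of 0.00 and another -1.23 (adjusted p = 0.00336). CREB1 was read by 5 probes with differences from -0.43 (adjusted p = 0.0134) to 0.26 (adjusted p = 0.0178). The brightest ELK4 probe rose by 0.54, and its other probes had -0.14, -0.16 and -0.25, none past the threshold. For RPS6KA3 the values were -0.04 at the brightest probe, -0.15 and -0.81 (adjusted p = 0.016), and for EGFR -0.91 and -0.22 (adjusted p = 0.139). By contrast, both probes of FHL2 fell (-0.90 and -0.97), both of MYC rose (0.56 and 0.58) and the 3 of SGK1 rose (0.94, 0.82 and 0.82). These examples were chosen after their values were seen.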
